A study of Mus musculus with 12 samples.

Results

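A set of 10 genes of the Slit-Robo, netrin and semaphorin guidance systems were followed through the ventricles of mouse embryos at E15.5: the ligand genes Slit2, Slit3, Ntn1, Sema3c and Sema3d and the receptor genes Robo1, Robo2, Unc5b, Plxnd1 and Plxna2. They were selected by name, with the values of these same libraries in all 4 genotypes already known, and are 10 of the 38293 genes in the table. Because of that, the position of a member in a fit across all genes is given as a description, and nothing is supported with it. All 10 passed the filter on low counts.

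Polyadenylated RNA was sequenced from 12 pools of 4 pairs of ventricles each, 3 pools per genotype. WT embryos carried none of the alleles named here. The triple heterozygote was Mib1 R530X/+, Apcdd1 V150I/+ and heterozygous for an Asxl3 missense allele, which the labels write as M1361V in one place and M1415V in another. The Cre control was Mib1 flox/+ with Tnnt2-Cre/+, and the Mib1 mutant was Mib1 R530X/flox with Tnnt2-Cre/+. Tnnt2 is a cardiomyocyte gene, so the flox allele is recombined in cardiomyocytes, whereas the R530X stop allele is present in every cell of its carriers. Both of the last groups carry 1 flox allele and the driver, and they differ in the stop allele on the other chromosome copy. Counts per gene do not show the deleted part of the flox allele.

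In these systems a secreted ligand is read by a transmembrane receptor on another cell. Slit proteins bind Robo receptors, netrin 1 binds DCC, neogenin and UNC5 receptors, and class 3 semaphorins act through plexins, often with neuropilin as co-receptor. They were first described in axon guidance, and in the heart they are known for roles in endothelial sprouting, in the outflow tract, in the septa and valves and in the growth of trabeculae. Mib1 encodes a ubiquitin ligase that Notch ligands need in the cell that presents them.

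Mib1 itself was the check of the labels. Its level, as read counts scaled to library size and composition (CPM), was 126 to 145 in the WT pools, 57.9 to 74.1 in the triple heterozygote, 101 to 108 in the Cre control and 50.1 to 54.8 in the Mib1 mutant. Libraries held 10103548 to 22157720 estimated reads, so that 1 read equalled 0.0452 to 0.0991 CPM, depending on the library. The first principal component of all genes (26.4% of the variance) placed the 6 Cre-line libraries on one side and the other 6 on the other side. Xist, made from the inactive X chromosome, was almost absent from replicate 1 of the Cre control (0.387 CPM) and of the Mib1 mutant (0.095 CPM). It was at 71.5 to 458 CPM in the other 10. Calls of guidance genes by edgeR that were lost without those 2 pools are therefore marked. Ratios, marker sums and genes of similar pattern are given with all pools only. Markers of cardiomyocytes summed to 24400 to 30700 CPM over the 12 libraries, and those of liver, lung and skeletal muscle to at most 20, 0.517 and 1.19 CPM.

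The Mib1 mutant had higher transcript levels of 3 guidance receptor genes than the Cre control. Robo1 was 2.04-fold higher, Robo2 1.80-fold and Unc5b 1.53-fold, and in each the 3 Mib1 mutant pools stood above the other 9 pools of the study. Without the 2 pools of almost no Xist Robo1 was still called by edgeR, while Robo2 and Unc5b did not pass. Slit2, the most abundant Slit gene here, pointed the other way at 1.53-fold lower but did not pass the test. Ntn1, Slit3, Plxnd1 and Plxna2 differed by at most 1.14-fold. In the triple heterozygote, which carries the same stop allele on 1 chromosome copy, no member differed from WT by more than 1.21-fold.

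Slit2 and Slit3 encode secreted Robo ligands. Slit2 (ENSMUSG00000031558; GRCm38 chromosome 5, 47983138 to 48307733) was at 159, 130 and 143 CPM in the WT pools, at 113, 126 and 161 in the triple heterozygote, at 130, 84.4 and 111 in the Cre control and at 88.7, 57 and 66.4 in the Mib1 mutant. The Mib1 mutant pools were thus lowest as a group, with replicate 1 above the lowest Cre control pool. The mean fell short of the Cre control by a log2 value of -0.61 (SE 0.17), and the edgeR adjusted p, which is Benjamini-Hochberg adjusted over all genes tested, was 0.0979. Mean levels were 108 ± 22.7 CPM for the Cre control pools and 70.7 ± 16.3 for those of the Mib1 mutant (SD, n = 3 each). Slit2 passed in 3 of 20 alternatives and did not pass in the other 17. It passed without Mib1 mutant replicate 1 (-0.82, edgeR adjusted p 0.0394), when low counts were not filtered (-0.63, 0.000607) and with a term for the replicate number. Without both pools of almost no Xist, of which that replicate is one, it was -0.67 and did not pass (0.114). The Cre control itself lay below WT (log2 -0.41, SE 0.17), at an edgeR adjusted p of 0.532. Those pools did not overlap, but the highest Cre control pool and the lowest WT pool both rounded to 130 CPM. The share of all genes without overlap was not computed for that comparison. Slit3 (ENSMUSG00000056427; chromosome 11, 35121224 to 35708507) was at 10.9 to 18.2 CPM in the Cre control and 13.3 to 17.8 in the Mib1 mutant, and the 2 groups overlapped (log2 0.04, SE 0.21, edgeR adjusted p 0.964).

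Robo1 and Robo2 encode receptors of the immunoglobulin superfamily for Slit ligands. Robo1 (ENSMUSG00000022883; chromosome 16, 72308306 to 73046095) was at 54.6, 53.9 and 54.6 CPM in WT, at 43.7, 56.9 and 61.1 in the triple heterozygote, at 41.2, 44.6 and 56 in the Cre control and at 93.2, 92.8 and 104 in the Mib1 mutant. The Mib1 mutant pools lay close together and far above the rest. Robo1 was higher there by a log2 value of 1.03 (SE 0.12, edgeR adjusted p 0.000287), with means of 96.7 ± 6.36 and 47.3 ± 7.76 CPM (SD, n = 3 each). Robo2 (ENSMUSG00000052516; chromosome 16, 73891839 to 74411825) was much scarcer, with 59 to 175 reads per library. It was at 8.15, 9.35 and 7.23 CPM in WT, at 5.72, 7.91 and 8.03 in the triple heterozygote, at 5.7, 5.93 and 8.32 in the Cre control and at 10.9, 13.3 and 12.1 in the Mib1 mutant. The groups of the Mib1 comparison did not overlap (log2 0.85, SE 0.18, edgeR adjusted p 0.0244). The call of Robo2 was lost without Cre control replicate 1 (0.105) or 2 (0.118), without Mib1 mutant replicate 3 (0.0621) and when just the 6 libraries compared were fitted (0.0774). Without the 2 pools of almost no Xist it was at 0.125, with a value of 0.81. The call of Robo1 held in all 20 alternatives run, with values of 0.94 to 1.17.

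**Figure D1:**
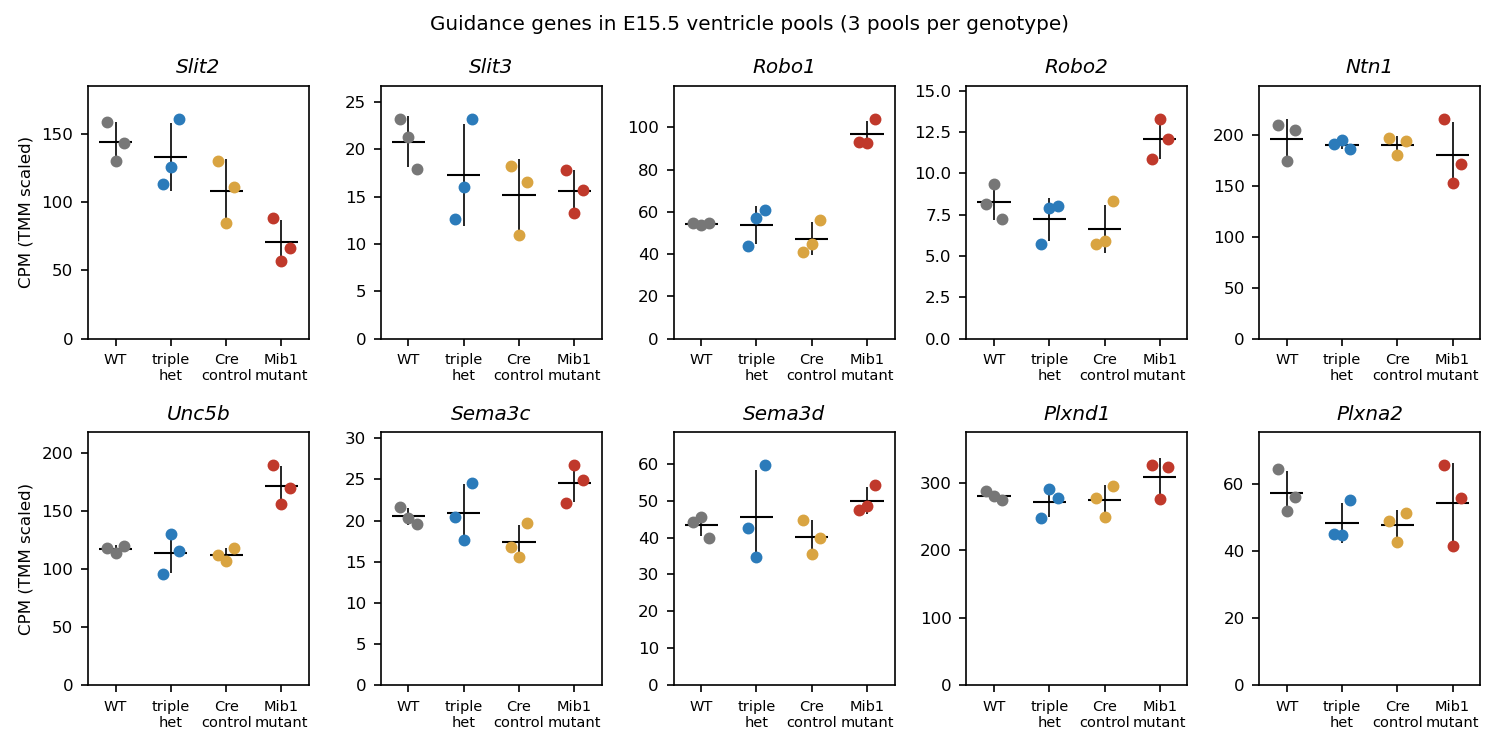
Level of each guidance gene (y axis, CPM after TMM scaling, linear from 0) in the 3 pools of each genotype (x axis); points are pools, horizontal lines means and vertical lines 1 SD. The Mib1 mutant pools of Robo1 (92.8 to 104 CPM), Robo2 (10.9 to 13.3) and Unc5b (156 to 189) lie above all other pools, while Ntn1 and Plxnd1 are at similar levels in the 4 genotypes.

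Per kilobase of the principal transcript, Robo1 was the major of these 2 receptors. The ratio of Robo1 to Robo2 on that scale averaged 5.67 ± 0.316 for the Cre control and 6.36 ± 0.737 for Mib1 mutant pools (SD, n = 3), with overlap. Set against Slit2 per kilobase, Robo1 stood at a ratio of 0.5 ± 0.0483 in WT, 0.535 ± 0.0526 in the triple heterozygote and 0.594 ± 0.153 in Cre controls, but at 1.86 ± 0.419 in the Mib1 mutant (SD, n = 3 each). Its Mib1 mutant pools ranged from 1.38 to 2.15 and the other 9 from 0.418 to 0.696. Per length, Robo1 thus stood above Slit2 in the Mib1 mutant and below it in the other genotypes. That holds for this pair only, and the lower Slit2 in the Mib1 mutant did not pass the test. Robo4, not part of the ratio, was at 8.69 CPM per kilobase in WT and 9.07 in the Cre control. In whole ventricles these are sums over all cells, and more cells of a type cannot be told apart from more RNA per cell.

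Ntn1 encodes netrin 1, and Unc5b a netrin receptor of endothelial cells. Unc5b (ENSMUSG00000020099; chromosome 10, 60762593 to 60831581) was at 118, 114 and 120 CPM in WT, at 95.5, 130 and 115 in the triple heterozygote, at 112, 107 and 118 in the Cre control pools and at 189, 156 and 170 in the Mib1 mutant. The 3 Mib1 mutant pools were again the highest of the 12. The log2 difference was 0.61 (SE 0.10, edgeR adjusted p 0.00458), between means of 172 ± 16.6 and 113 ± 5.84 CPM (SD, n = 3 each). Without the 2 pools of almost no Xist it was 0.53 and did not pass (0.0765). Ntn1 (ENSMUSG00000020902; chromosome 11, 68209364 to 68400823) had 197, 181 and 194 CPM in Cre control pools and 216, 153 and 172 in the Mib1 mutant, which spread on both sides of it (log2 -0.08, SE 0.11, edgeR adjusted p 0.807). The ratio of Unc5b to Ntn1 per kilobase averaged 0.591 ± 0.019 for Cre controls and 0.962 ± 0.0757 for Mib1 mutants, beside 0.601 ± 0.0462 in WT and 0.596 ± 0.086 in the triple heterozygote (SD, n = 3 each). Its pools ran from 0.877 to 1.02 in the Mib1 mutant and reached at most 0.668 in the other genotypes.

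Sema3c and Sema3d encode secreted class 3 semaphorins. Sema3c (ENSMUSG00000028780; chromosome 5, 17574281 to 17730268) had 16.8, 15.6 and 19.7 CPM in Cre control pools and 22.1, 26.7 and 24.9 in the Mib1 mutant, without overlap. The log2 difference of 0.50 (SE 0.13) had an edgeR adjusted p of 0.07. It passed in 5 of 20 alternatives, DESeq2 among them, and its value ran from 0.42 to 0.60 over the 20. WT pools were at 19.6 to 21.6 CPM, overlapping the highest Cre control pool and lying below every Mib1 mutant pool. Triple heterozygote pools were at 20.4, 17.6 and 24.6 CPM, with replicate 3 inside the range of the Mib1 mutant. Sema3d (ENSMUSG00000040254; chromosome 5, 12383385 to 12588948) was at 35.5 to 44.9 CPM in the Cre control and 47.4 to 54.2 in the Mib1 mutant (log2 0.32, SE 0.15, edgeR adjusted p 0.357). A triple heterozygote pool, replicate 3, held the highest Sema3d of the study at 59.6 CPM, while replicate 2 held the lowest at 34.8.

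Plxnd1 and Plxna2 encode plexins, the receptors through which semaphorins signal. Plxnd1 (ENSMUSG00000030123; chromosome 6, 115954811 to 115995005), an endothelial plexin, had 277, 249 and 296 CPM in Cre control pools and 326, 276 and 323 in the Mib1 mutant, with overlap (log2 0.17, SE 0.09, edgeR adjusted p 0.411). Plxna2 (ENSMUSG00000026640; chromosome 1, 194618218 to 194816869) was at 42.6 to 51.3 CPM in the Cre control. In the Mib1 mutant it spread from 41.6 to 65.6 CPM, around the Cre control and WT values alike (log2 0.19, SE 0.14, edgeR adjusted p 0.613).

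Read per kilobase in WT, the order of the members was Plxnd1 at 40.6 ± 0.966, Ntn1 at 33.5 ± 3.24, Unc5b at 20 ± 0.535, Slit2 at 14.5 ± 1.5, Robo1 at 7.19 ± 0.0532, Sema3d at 6.86 ± 0.46, Plxna2 at 5.21 ± 0.581, Slit3 at 3.98 ± 0.515, Sema3c at 3.73 ± 0.18 and Robo2 at 1.38 ± 0.177 CPM per kilobase (SD, n = 3 each). Robo1 and Sema3d overlapped, as did Slit3 and Sema3c. In the Mib1 mutant Robo1 was at 12.8 ± 0.841 and Slit2 at 7.1 ± 1.64 CPM per kilobase. Ntn1 at 30.7 ± 5.5 and Unc5b at 29.3 ± 2.82 overlapped there, while in WT they did not.

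In the whole comparison of the Mib1 mutant with the Cre control, 3 of 10 members were called, all higher. Among all 13964 genes tested 1.5% were called, 0.909% higher and 0.594% lower. Pools did not overlap for 5 members, all higher (Robo1, Robo2, Unc5b, Sema3c and Sema3d), beside 8.86% of all genes higher and 7.75% lower without overlap. The members' median log2 difference was 0.25 and that of all genes 0.005. Since the members were picked with this comparison known, these shares describe them only. DESeq2 called Sema3c as well, 4 in all, and limma-voom called the same 3 as edgeR. All shares over all genes given here are from edgeR, and those of DESeq2 and limma-voom are not given.

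The triple heterozygote carries the stop allele together with the Asxl3 and Apcdd1 variants and without Cre, and was compared with WT. No member was called by edgeR, limma-voom or DESeq2, and none had an unadjusted edgeR p under 0.05. Among all 13964 genes edgeR called 0.0215%, and 1209 had an unadjusted edgeR p under 0.05. The log2 differences of the members ran from -0.28 (Slit3, SE 0.20) to 0.06 (Sema3d, SE 0.15), and pools overlapped for all 10. The share of all genes without overlap was not computed for this comparison, so that count is a description only. For Robo1 the difference was -0.01 (SE 0.12), for Robo2 -0.18 (SE 0.18), for Unc5b -0.04 (SE 0.10) and for Slit2 -0.11 (SE 0.17).

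The difference between these effects was tested as a contrast of its own, and the comparisons share no library. Robo1 differed by 1.04 (SE 0.17, edgeR adjusted p 0.0136), the only member called by edgeR, beside 0.516% of all genes. As the members were chosen with all 4 genotypes known, this p describes Robo1 and supports nothing. Without the 2 pools of almost no Xist it was 0.95 and did not pass (0.0528). For Robo2 the difference was 1.03 (SE 0.25, edgeR adjusted p 0.0986), for Unc5b 0.66 (SE 0.14, 0.0567), for Sema3c 0.48 (SE 0.18, 0.272) and for Slit2 -0.50 (SE 0.24, 0.371). DESeq2 called Robo1, Robo2 and Unc5b, and its own share over all genes is not given here.

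**Figure D2:**
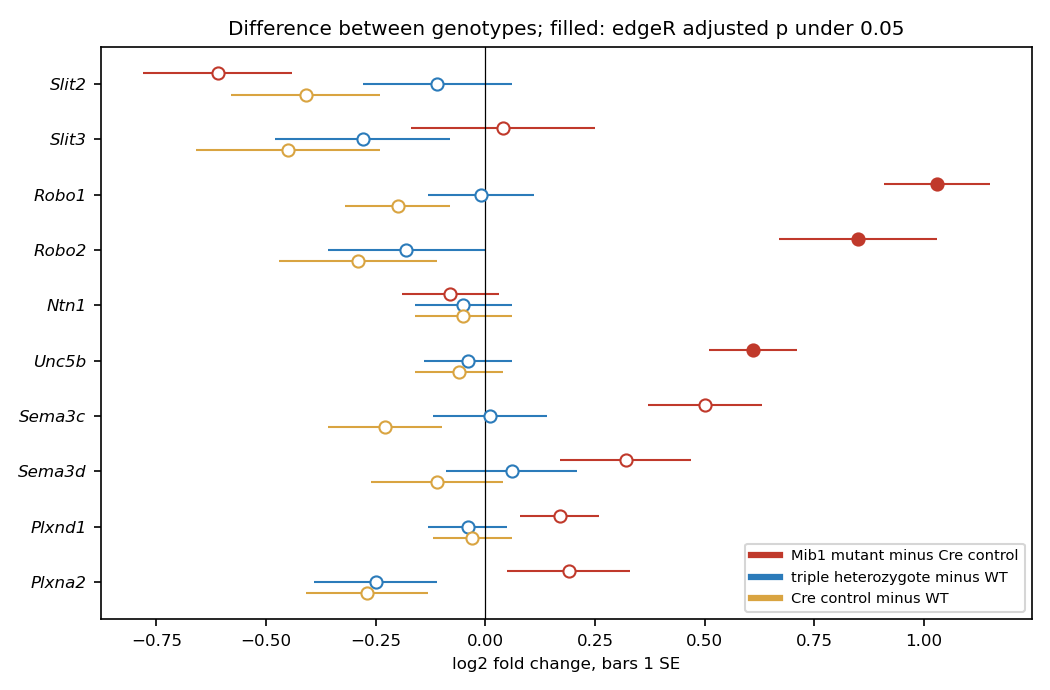
Log2 fold change (x axis, bars 1 SE) of each guidance gene (y axis) between genotypes, with filled points where the edgeR adjusted p is under 0.05. Robo1 (1.03), Robo2 (0.85) and Unc5b (0.61) are filled in the Mib1 mutant comparison, and no point is filled for the triple heterozygote or between the control groups.

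The 2 control groups, which by their genotypes differ in the flox allele and the driver, were compared in the same way. No member was called by edgeR, limma-voom or DESeq2, beside 0.279% of all genes by edgeR. An unadjusted edgeR p under 0.05 was found for 2 members (Slit2 and Slit3), beside 1177 of all 13964 genes. All 10 values were negative, from -0.45 (Slit3, SE 0.21) to -0.03 (Plxnd1, SE 0.09), with a median of -0.21. Of all genes 49.6% had positive values, with a median of -0.001. The Cre control pools enter this comparison and that with the Mib1 mutant with opposite signs, so the values are not independent. Robo1, Robo2 and Unc5b in the Mib1 mutant also stood above the WT pools, which were at most at 54.6, 9.35 and 120 CPM.

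RefSeq promoter windows, 250 bases before to 50 after a start site, are shown for the 3 called receptor genes, which were higher together. Sequences are from RefSeq on GRCm38.p6, whose tables held windows for 9 of the 10 members. The following 3 motifs of 6 letters were searched on both strands: TGGGAA, the core of the site of the Notch effector RBPJ, the E-box CACGTG, bound by Hey and Hes repressors among others, and the GATA factor site GATAAG. They do not overlap one another in these windows. Of 32851 windows of this length 25.6%, 7.15% and 7.44% held them. Capitals mark each match, with the gene read 5′ to 3′. The windows lie at chr16:72662899-72663198 on the plus strand (Robo1), chr16:75447244-75447543 on the minus strand (Robo2, the most upstream of its 3 windows) and chr10:60831532-60831831 on the minus strand (Unc5b).
Robo1: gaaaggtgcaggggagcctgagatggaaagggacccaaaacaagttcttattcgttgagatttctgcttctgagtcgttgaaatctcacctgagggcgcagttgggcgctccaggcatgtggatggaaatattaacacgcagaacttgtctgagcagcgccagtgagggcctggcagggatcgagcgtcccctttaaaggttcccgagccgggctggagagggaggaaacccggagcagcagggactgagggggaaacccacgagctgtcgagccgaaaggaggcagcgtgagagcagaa
Robo2: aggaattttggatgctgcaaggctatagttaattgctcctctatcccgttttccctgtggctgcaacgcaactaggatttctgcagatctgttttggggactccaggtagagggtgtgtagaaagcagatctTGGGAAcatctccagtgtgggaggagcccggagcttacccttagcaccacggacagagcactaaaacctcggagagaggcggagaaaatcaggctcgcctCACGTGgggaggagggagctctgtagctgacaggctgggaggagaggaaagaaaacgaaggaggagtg
Unc5b: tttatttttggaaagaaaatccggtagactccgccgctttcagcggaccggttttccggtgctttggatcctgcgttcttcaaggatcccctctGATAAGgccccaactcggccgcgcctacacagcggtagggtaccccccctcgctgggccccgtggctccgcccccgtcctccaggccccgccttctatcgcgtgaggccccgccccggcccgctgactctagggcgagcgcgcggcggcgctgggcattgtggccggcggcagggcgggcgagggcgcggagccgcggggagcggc

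The Robo2 window held TGGGAA from position -118 and CACGTG from position -18 relative to the start site, and the Unc5b window held GATAAG from position -156. The Robo1 window, both other Robo2 windows and those of the 6 other members held none of the 3 motifs. The Robo2 window is shown because it holds matches, and it lies outside the gene's extent in GENCODE M21, on which the symbols here are based. The Robo2 window at the GENCODE start (74411776 to 74412075) held none. The Robo1 window lies inside the gene's extent, downstream of its GENCODE start. Which starts were used in these ventricles cannot be read from counts per gene. GC content was 57% in the Robo1 window, 53.3% in this Robo2 window and 69.7% in the Unc5b window, beside a median of 52.7% over all windows. No exon of a member overlaps an exon of another gene in GENCODE M21, on either strand.

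The rest of the guidance families was described from a list made by name: 62 further genes, of which 51 were tested. In the Mib1 mutant edgeR called 2 of the 51 higher and 1 lower, beside 0.909% and 0.594% of all genes. limma-voom called 1 of them (Flrt3), and DESeq2 called 4 (Flrt3, Ntn4, Sema3a and Srgap1), with shares over all genes not given for these tools. Of the values 35 were positive and 16 negative, with a median of 0.11, beside 51.2% positive and a median of 0.005 over all genes. Srgap1, a GTPase-activating protein that acts below Robo receptors, had 34, 29.9 and 38.8 CPM in Cre control pools and 51.7, 43.7 and 43.7 in the Mib1 mutant (log2 0.43, SE 0.10, edgeR adjusted p 0.0456). Flrt3, a membrane protein that binds UNC5 receptors, was at 12.9, 15.9 and 20.2 CPM and at 24.1, 27.6 and 23.4 (log2 0.60, SE 0.13, edgeR adjusted p 0.0289). Both were higher in all 3 Mib1 mutant pools than in any Cre control pool. Sema3a, a secreted semaphorin that repels axons, fell by 0.67 on the log2 scale (SE 0.15, edgeR adjusted p 0.0293), from 26.7, 20.5 and 27.5 CPM to between 14.6 and 16.9 CPM. WT pools of Sema3a were at 29.6 to 35.9 CPM. These 3 calls were less stable than that of Robo1. Srgap1 was called in 7 of 20 alternatives, Flrt3 in 13 and Sema3a in 12, and none of the 3 was called when just the 6 libraries compared were fitted or without the 2 pools of almost no Xist.

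By role, with the same shares over all genes as background and edgeR as the test, 1 of 4 tested Slit-Robo genes was called higher, and all 4 values were positive (median 0.22). Robo4, an endothelial Robo, differed by 0.06 (SE 0.09, edgeR adjusted p 0.825). Of 10 tested netrins, netrin receptors and partners 1 was called higher, with 7 positive values and a median of 0.22. Of 17 other semaphorins 1 was called lower, with 8 positive values and a median of -0.09. None of 8 other semaphorin receptors was called by edgeR, and the median was 0.14. An unadjusted edgeR p under 0.05 was found for 2 of the 8, beside 1954 of all 13964 genes. Those were Plxna3, a plexin (log2 0.43, SE 0.13, edgeR adjusted p 0.116), and Plxnc1, the plexin of Sema7a (-0.39, SE 0.17, 0.313). None of 12 effectors was called, with 3 at an unadjusted p under 0.05 and a median of 0.12. The smallest p among them were those of Dpysl2, a collapsin response mediator (log2 0.27, SE 0.08, edgeR adjusted p 0.139), and Mical2, an actin-oxidising enzyme (0.22, SE 0.07, 0.147). In the triple heterozygote none of the 51 was called by edgeR, limma-voom or DESeq2, and the median was -0.01. Of the 51, 3 had an unadjusted edgeR p under 0.05, beside 1209 of all 13964 genes. For the difference between the genotype effects edgeR and limma-voom called none, and DESeq2 called Ntn4 and Srgap1. At an unadjusted p under 0.05 were 6 by edgeR and 7 by limma-voom, beside 1928 of all 13964 genes by edgeR.

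**Figure D3:**
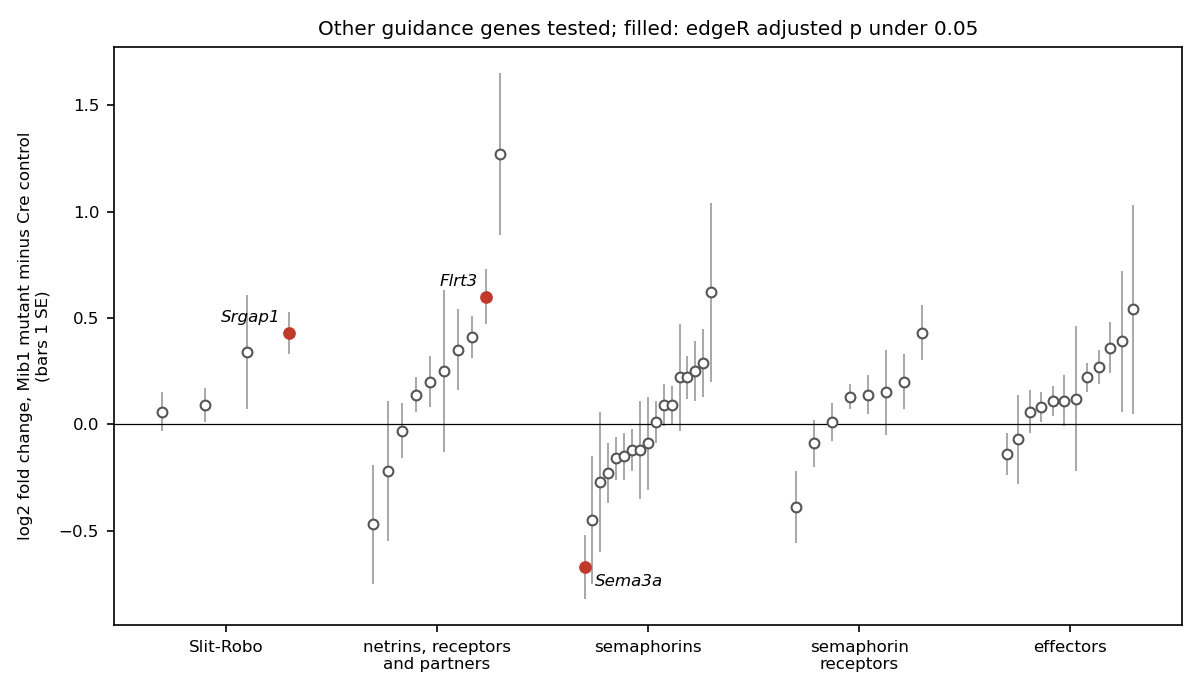
Log2 fold change (y axis, bars 1 SE) of 51 other guidance genes for Mib1 mutant minus Cre control, by role (x axis) and in order of value; filled points have an edgeR adjusted p under 0.05. Srgap1 (0.43) and Flrt3 (0.60) are filled above 0, and Sema3a (-0.67) below.

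Genes whose pattern was most like that of Robo1 and Unc5b were taken by the correlation of log2 CPM within the 6 Cre-line libraries and within the 6 others, ranked by the lower of both values over 11583 genes. For Robo1 they were Adcy5, an adenylyl cyclase of the heart (Pearson r 0.93 and 0.95), Fbln2, a matrix fibulin (0.96 and 0.93), and elastin, Eln (0.91 and 0.98). For Unc5b they included Col4a1, a basement membrane collagen (0.97 and 0.96), and Dchs1, a protocadherin (0.94 and 0.98). The libraries share depth and composition, the rank was taken over many genes from few libraries, and within the Cre line the genotype difference enters r. In the Mib1 mutant Adcy5 differed by 0.36 (SE 0.08, edgeR adjusted p 0.0358) and Fbln2 by 0.58 (SE 0.14, 0.0507), and Eln by 1.39 (SE 0.25, 0.008), while Col4a1 and Dchs1 differed by 0.24 (SE 0.07) and 0.39 (SE 0.11), each at an edgeR adjusted p of 0.114.

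Markers of cell types that express guidance genes were summed beside these results. None of the markers was at 0 in all libraries. The 6 cardiomyocyte markers summed to 27100 to 30200 CPM in the Cre control pools and 24400 to 27900 in the Mib1 mutant. These sums overlapped, no marker was called, and 2 of the 6 had positive values (median log2 -0.1). The 6 endothelial markers summed to 851 to 964 CPM in the Cre control pools and 886 to 1050 in the Mib1 mutant, and the 4 arterial ones to 122 to 126 and 122 to 153, with overlap in both and no marker called. The 5 fibroblast markers (1940 to 2120 and 2050 to 2790 CPM) and the 6 of smooth muscle and pericytes (1490 to 1580 and 1360 to 2010) overlapped as well, again with no call. All 5 fibroblast markers had positive values (median log2 0.23), against 3 of the 6 of smooth muscle and pericytes (median -0.02). The 2 endocardial markers summed to 145 to 178 CPM in the Cre control pools and 141 to 166 in the Mib1 mutant, with overlap and no call. The 6 epicardial markers summed to 154 to 168 CPM in the Cre control pools and 174 to 183 in the Mib1 mutant, and the 2 atrial ones to 156 to 166 and 196 to 322, without overlap and with no marker called. Macrophage markers ran the other way (55.5 to 69.1 and 40.9 to 50 CPM), with 1 of 6 called, C1qb, as did the 3 erythroid ones (56.2 to 69.8 and 42.4 to 55), with none called. The part of these cell types in the higher Robo1, Robo2 and Unc5b was not tested. The 9 markers of neurons and Schwann cells summed to 6.76 to 12.1 CPM over the 12 libraries.

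**Figure D4:**
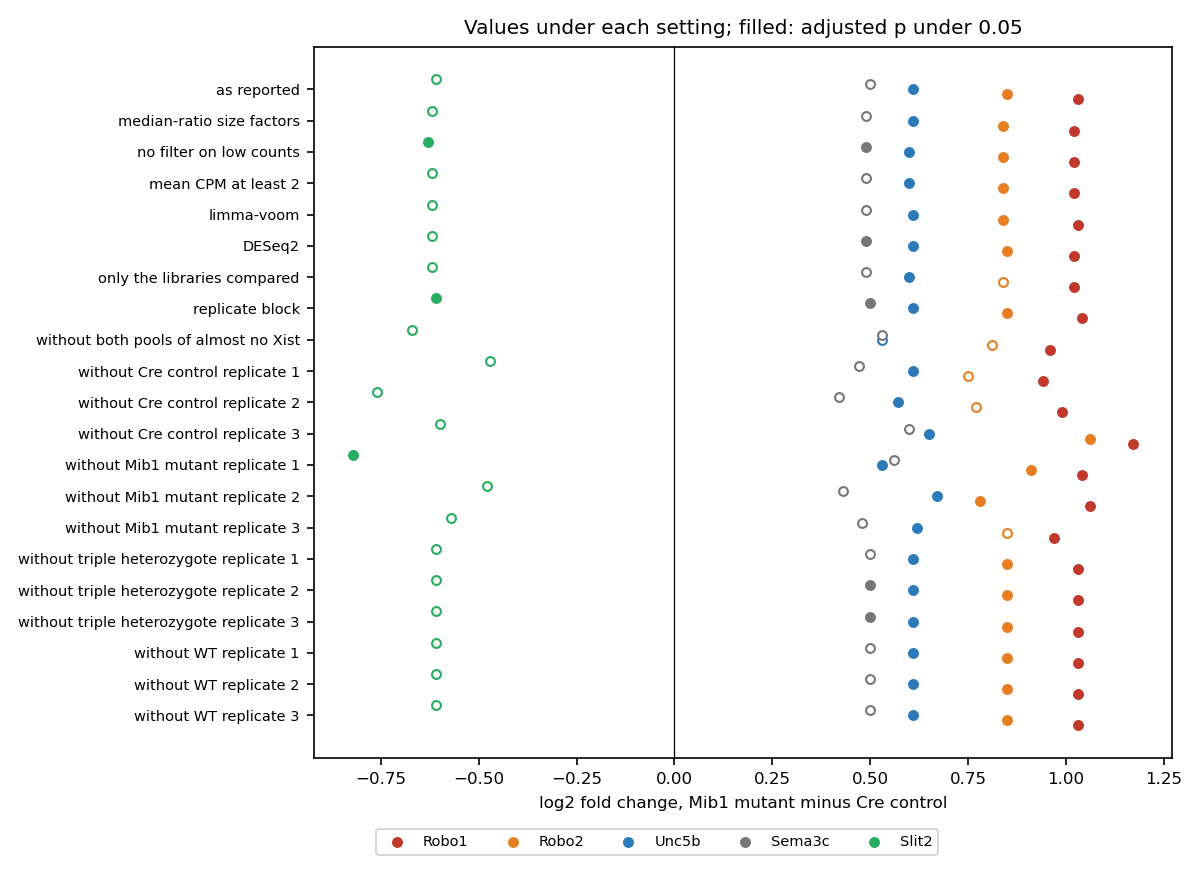
Log2 fold change in the Mib1 mutant comparison (x axis) of 5 guidance genes under each setting or left-out library (y axis), with filled points where the adjusted p is under 0.05. Robo1 is filled in every row, Unc5b is open only without the 2 pools of almost no Xist, and Slit2 is filled in 3 rows.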

How the data were processed

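Expected counts were deposited by the authors as 1 table; RSEM, cutadapt, limma, bcl2fastq 2.20.0.422 and the build GRCm38 are named in the submitters' processing notes without role or order, with the aligner not given in the sources used here, nor the annotation. Columns were matched to samples by name. The columns called MUT were matched to the triple heterozygote because their name has neither flox nor Cre, an inference made without values. All 12 columns were used. Of the values 9.64% were not whole, so counts were rounded. Symbols and positions came from GENCODE M21 (36429 of 38293 identifiers matched), and lengths from the longest APPRIS principal transcript.

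Counts were tested with edgeR 4.0.16 in R 4.3.3 (glmQLFit and glmQLFTest, two-sided, TMM, filterByExpr) on all 12 libraries in 1 fit with 4 groups. Adjustment was by Benjamini-Hochberg across the 13964 genes kept, with a threshold of 0.05. The SE is the log2 fold change divided by the square root of F. The script was tested on simulated data. No pair of replicates matched within sampling noise (chi-square over its degrees of freedom, 2.05 to 13.3). Litters of the pools are not stated, so p-values measure the spread between pools. The members, lists and named genes were chosen with earlier results of these data known. All members were named; of the other guidance genes, those called in any comparison and, in roles without a call, the 2 of smallest p were named, and for the 2 members of smallest p, the 3 genes of most similar pattern (mean of at least 2 CPM, predicted genes passed over), of which 1 is not reported here. Robo4, Dcc and Ntn4 were chosen after their values were seen. Alternatives were median-ratio size factors, no filter, a mean CPM of at least 2, limma-voom 3.58.1, DESeq2 1.42.0, the replicate number as a block, only the libraries compared, no pools of almost no Xist, and each replicate left out.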

Additional observations from a re-analysis of the deposited data

Results flagged for a closer look

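Robo1 is given here because its values in the 2 genotype comparisons passed the test of the difference itself. It was chosen with the values of all 4 genotypes known, so that p is a description and supports nothing. The log2 value was 1.03 for Mib1 mutant minus Cre control and -0.01 in the triple heterozygote against WT, a difference of 1.04 (SE 0.17, edgeR adjusted p 0.0136). Without replicate 1 of the Mib1 mutant and of the Cre control, the pools of almost no Xist, it was 0.95 and did not pass (0.0528). It was higher in 3 of 3 Mib1 mutant pools than in any Cre control pool, while the triple heterozygote pools lay on both sides of WT. The genotypes differ in the flox allele, the driver and the Asxl3 and Apcdd1 variants, and with which of these the difference goes cannot be told apart.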

How the results depend on the processing

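Over 890 values of single genes under an alternative, 13 changed sign, none of them called. In the Mib1 mutant comparison the count of members called higher was 1 without the 2 pools of almost no Xist, and 1 member was called lower (Slit2) with no filter and with the replicate block. The count of other guidance genes called higher was 1 with median-ratio size factors and limma-voom, and 0 with only the libraries compared or without the 2 pools; that called lower was 0 with limma-voom, only the libraries compared or without the 2 pools. For the difference between effects, members called numbered 3 with no filter and with DESeq2 and 0 without the 2 pools, and other guidance genes 3 with no filter, 2 with DESeq2 and 3 with the replicate block. Leaving out 1 replicate at a time, members called higher ranged from 2 to 4, members called lower from 0 to 1, other guidance genes called higher from 0 to 4 and lower from 0 to 1, and for the difference between effects members called from 1 to 2 and others from 0 to 2. The share of all genes called under each alternative is not given here, so these counts are a description only. The cause was not tested.

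The sign changes came in small values: Sema3c in the triple heterozygote was -0.02 with limma-voom. Leaving out 1 replicate, ranges were -0.1 to 0.12 for Robo1, -0.16 to 0.06 for Unc5b, -0.12 to 0.13 for Sema3c, -0.17 to 0.24 for Sema3d and -0.1 to 0.02 for Plxnd1 in the triple heterozygote, -0.15 to 0.18 for Slit3 and -0.24 to 0.03 for Ntn1 in the Mib1 mutant, -0.2 to 0.07 for Ntn1 in the difference between effects and -0.09 to 0.03 for Plxnd1 between the control groups. Same-numbered pools of the Mib1 mutant and Cre control had correlated deviations of 0.139, 0.256 and 0.049, and not all of them with their own number first, so the numbers were not taken as pairs. With the replicate block the count of members called higher was 4.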

Other observations

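Beyond the genes called by edgeR, 2 further genes of the netrin family and its receptors were chosen after their values were seen. Dcc, a netrin receptor better known from neurons, had 1.16, 0.974 and 1.96 CPM in Cre control pools and 4.85, 1.68 and 3.62 in the Mib1 mutant (log2 1.27, SE 0.38, edgeR adjusted p 0.117), with overlap of pools. Ntn4, a netrin of basement membranes, was at 36, 43 and 34.5 CPM and at 55.9, 48.9 and 45.7 (log2 0.41, SE 0.10, edgeR adjusted p 0.055), without overlap, and DESeq2 called it. For Ntn4 the difference between the genotype effects was 0.63 (SE 0.14, edgeR adjusted p 0.069).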
